A study of Mus musculus with 6 samples.

Results

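Paneth cells sit at the base of small intestinal crypts between the stem cells, and they fill large granules with antimicrobial proteins. Their best known products are the alpha-defensins, called cryptdins in the mouse, which are small cationic peptides held together by disulfide bonds, and lysozyme, which cuts the cell wall of bacteria. Matrilysin (Mmp7) trims the mouse pro-defensins to their active form inside the granule. The genes described here are those whose platform symbol begins with Defa or Defb, or with Reg followed by 1 to 4, together with Lyz1, Lyz2, Mmp7, Ang4, Itln1, Clps, Kit, Pla2g2a and Pnliprp2. This rule gave 66 of the 19057 genes with a named probe on the array: 8 alpha-defensins, 42 beta-defensins, 7 Reg lectins and the 9 genes named singly. They were measured by 88 probes.

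The arrays came from mouse small intestinal organoids, which are epithelial buds grown from crypts in culture and which hold Paneth cells beside stem, goblet, enteroendocrine and absorptive cells. Snai1 knockout organoids (3 arrays) carried Villin-Cre and floxed Snai1 alleles, and control organoids (3 arrays) carried Villin-Cre alone, so the transgene was common to both groups. The Villin promoter drives Cre in the intestinal epithelium, and both groups received 0.5 µM tamoxifen for 24 hours before harvest. By its title the series asks what Snai1, a zinc-finger repressor, does to lineage allocation and stem cells. Nothing in the labels ties a group's arrays to separate animals or cultures, so a p-value here covers just the variation among these samples, and that variation may be technical.

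Values are log2 intensities as deposited, with the base taken as 2. All arrays shared a median of 7.87, an upper quartile of 8.27 and a range of 7.71 to 14.8, and they correlated at r = 0.994 to 0.997. Over all genes 25 passed the test, which was limma with an adjusted p under 0.05. The brighter Snai1 probe read 7.91 ± 0.05 on knockout arrays and 7.91 ± 0.04 on control arrays (SD, n = 3 each), near the array median, so it does not check the labels. Dim values are compressed, which understates their differences. Brightness also depends on the probe, so the levels of different genes are not ranked here.

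Of the 66 genes, 18 had a mean over the 6 arrays above the upper quartile of all values, and 40 lay below the median. The brighter 18 were 6 alpha-defensins (Defa3, Defa20, Defa21, Defa23, Defa26 and Defa39), Lyz1, Itln1, Ang4, Mmp7, 4 Reg lectins (Reg1, Reg3a, Reg3b and Reg3g), Clps, Pnliprp2, Pla2g2a and Kit. These 6 alpha-defensins, Lyz1, Itln1 and Ang4 were well above the floor in both groups. Mmp7 and Reg3g lay just above the upper quartile, with means of 8.35 and 8.36. None of the 66 genes passed over all genes (limma, Benjamini-Hochberg), where 0.131% of genes were called, and none passed with the replicate number as a block, where 0.0472% were called. At an unadjusted p under 0.05 there were 6 of 66 without the block and 7 of 66 with it, against 7.22% and 10.9% of all genes. One further fit, with a variance trend and robust estimation, called Pnliprp2 alone, while it called 0.373% of all genes. In bulk RNA, fewer Paneth cells and less RNA per cell cannot be told apart.

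The 300-base windows around the annotated starts (250 bases before and 50 after, RefSeq, GRCm38.p6) were available for 46 of the 66 genes. Windows were searched on both strands for ATCAAAG, a TCF/LEF-type site of the kind through which Wnt signalling acts, and for CAGGTG, the E-box bound by Snail-family repressors. Matches of one cannot overlap matches of the other. The alpha-defensin sequences are shown because each carries a pair of TCF/LEF-type sites. Capitals mark motif matches in the 250 bases before the start.
Defa20, chr8:21509008-21509257, plus strand: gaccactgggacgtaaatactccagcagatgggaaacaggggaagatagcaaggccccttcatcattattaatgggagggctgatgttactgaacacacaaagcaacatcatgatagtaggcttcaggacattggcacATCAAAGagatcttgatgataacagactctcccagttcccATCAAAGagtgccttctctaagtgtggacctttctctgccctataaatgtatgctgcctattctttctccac
Defa23, chr8:21054790-21055039, plus strand: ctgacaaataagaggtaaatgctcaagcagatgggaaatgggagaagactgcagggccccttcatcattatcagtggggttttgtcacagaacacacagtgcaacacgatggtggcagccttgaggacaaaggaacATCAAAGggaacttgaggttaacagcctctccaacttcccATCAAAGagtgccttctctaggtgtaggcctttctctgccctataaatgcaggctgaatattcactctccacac
Both sequences carry the TCF/LEF-type motif at a like distance from the start, at -112 and -72 in Defa20 and at -114 and -74 in Defa23 (first base, counted from -1 at the base before the start). All 4 alpha-defensins with a window (Defa20, Defa21, Defa23 and Defa31) held it at least 2 times, which 0.122% of 27025 genes did, while 4.29% held it at least once. Within pairs these windows are near-copies and do not count as independent: Defa20 and Defa21 matched at 245 of 250 upstream bases, and the Defa23 and Defa31 windows were identical over all 300 bases. Between the pairs the motifs begin at positions that differ by 2 bases, so a count position by position misses likeness at that shift. Without gaps or shifts, 74 or 75 of 250 bases matched. The printed sequences around the second motif are alike once shifted. No alignment with gaps was run, and the pairs do not count as independent of each other either. CAGGTG also stood in all 4, downstream of the start, beginning at 28 in Defa20 and Defa21 and at 26 in Defa23 and Defa31.

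A Snail-type E-box was further present in 5 of the 7 Reg lectin windows, in Ang4, in Pnliprp2 and in Mmp7, there in the window of the later of its annotated starts. Over all members with a window 20 of 46 held it, or 43.5%, against 22.6% of all genes. These 20 include the 4 alpha-defensins, whose windows do not count as independent, and the 5 Reg lectins, again of a single family. The 2 shares are therefore not a like comparison, and their difference was not tested. Of the 28 beta-defensin windows 8 held the E-box, and none held the TCF/LEF-type site. The sequences of Reg3a and Pnliprp2, which with Reg1 had the lowest knockout minus control differences among the members, are given with both motifs in capitals. The Reg1 window, of the gene with the lowest difference, held neither motif.
Reg3a, chr6:78380459-78380708, plus strand: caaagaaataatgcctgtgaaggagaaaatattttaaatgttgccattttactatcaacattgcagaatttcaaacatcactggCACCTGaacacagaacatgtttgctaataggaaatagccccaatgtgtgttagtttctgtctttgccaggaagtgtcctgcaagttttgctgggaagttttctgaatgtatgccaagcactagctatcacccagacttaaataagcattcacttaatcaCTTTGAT
Pnliprp2, chr19:58759473-58759722, plus strand: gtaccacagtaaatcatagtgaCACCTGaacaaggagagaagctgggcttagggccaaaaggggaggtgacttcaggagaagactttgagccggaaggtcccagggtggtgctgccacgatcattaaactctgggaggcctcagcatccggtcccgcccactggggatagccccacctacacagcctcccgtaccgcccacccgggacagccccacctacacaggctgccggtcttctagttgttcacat
In Reg3a the E-box began at -166 and the TCF/LEF-type site at -7, and in Pnliprp2 the E-box began at -228, each on the strand opposite to the gene. A match describes the letters in the window and not a bound site.

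**Figure D1:**
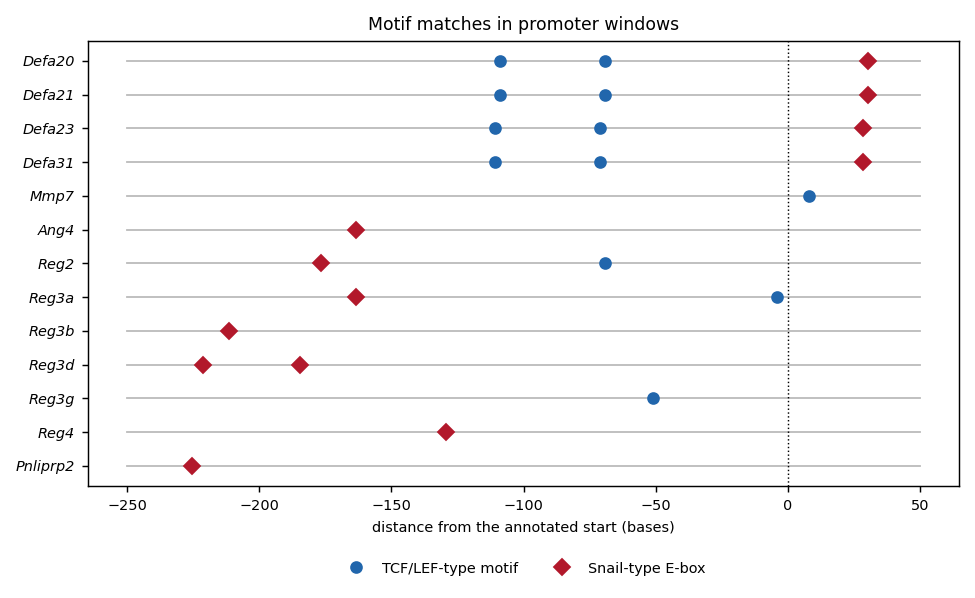
Positions of motif matches (circles, TCF/LEF-type motif; diamonds, Snail-type E-box) in the promoter windows of members other than beta-defensins, by distance in bases from the annotated start, with Mmp7 at its first annotated start. The 4 alpha-defensin rows carry 2 circles each at nearly the same distance.

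The alpha-defensins showed no common shift between genotypes. Of the 6 brighter genes 5 had a lower and 1 a higher knockout mean, the differences ran from -0.17 to 0.07, and none of the groups separated. Defa26 read 12.57, 13.02 and 13.17 on knockout arrays 1 to 3, against 12.73, 12.93 and 12.88 on control arrays 1 to 3, a difference of 0.07 ± 0.16 (SE; 95% interval -0.31 to 0.46). Defa23 read 11.52, 12.11 and 12.59 on knockout arrays, against 12.09, 12.01 and 12.60 on control arrays, a difference of -0.16 ± 0.30 (-0.89 to 0.57). In both genes the first knockout array was the lowest of the 6 and the third the highest or nearly so, and the groups overlapped.

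Defa39 read 10.24, 10.81 and 10.72 on knockout arrays and 10.58, 10.63 and 11.09 on control arrays (-0.17 ± 0.20, SE). Defa21 read 9.31, 9.65 and 9.76 on knockout arrays and 9.47, 9.68 and 9.89 on control arrays (-0.11 ± 0.15). The first knockout array was again the lowest for both. For Defa21 each knockout array lay below the control array of its own number, by 0.16, 0.03 and 0.13 on the log2 scale (adjusted p = 0.967 with limma, and 0.38 with the replicate block).

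Defa20 and Defa3 each had 3 probes, and these probes did not move alike across the arrays. The brightest Defa20 probe read 14.47, 14.40 and 14.34 on knockout arrays and 14.42, 14.48 and 14.33 on control arrays, whereas its dimmest read 10.60, 11.25 and 11.56 on knockout arrays and 10.53, 10.95 and 11.07 on control arrays. The brightest Defa3 probe read 14.36, 14.11 and 13.80 on knockout arrays and 14.19, 14.20 and 14.01 on control arrays. Its dimmest read 9.03, 9.52 and 9.86 on knockout arrays and 9.38, 9.47 and 9.74 on control arrays. Within each gene the brightest probe was higher on the first than on the third array of both groups, and the dimmest was lower.

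This opposition ran through the whole set of 10 alpha-defensin probes above the upper quartile. In the 7 with means of 9.50 to 13.4, array 1 read below array 3 in both groups, and in the 3 with means of 14.1 to 14.4 it read above array 3 in both groups. On average over the 7 probes, the knockout arrays 1 to 3 deviated from the probes' own means by -0.42, 0.08 and 0.32, and the control arrays by -0.16, -0.05 and 0.23. Over the 3 brightest the deviations were 0.16, -0.01 and -0.21 on knockout arrays and 0.06, 0.11 and -0.11 on control arrays. These 3 probes lie close to the highest value on the arrays of 14.8. With 40 Defa genes and pseudogenes in the RefSeq table, all on 1 chromosome, and named probes for only 8, a defensin probe may also see related genes. The part of either fact in the opposition was not tested.

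The 2 remaining alpha-defensin symbols were at the floor. Defa31 read between 7.81 and 7.85 on knockout arrays and between 7.81 and 7.83 on control arrays. Its promoter window is identical to that of Defa23, but brightness also depends on the probe, so their levels are not compared. The pseudogene Defa-ps1 read 7.81, 7.84 and 7.87 on knockout arrays and 7.83, 7.86 and 7.89 on control arrays.

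**Figure D2:**
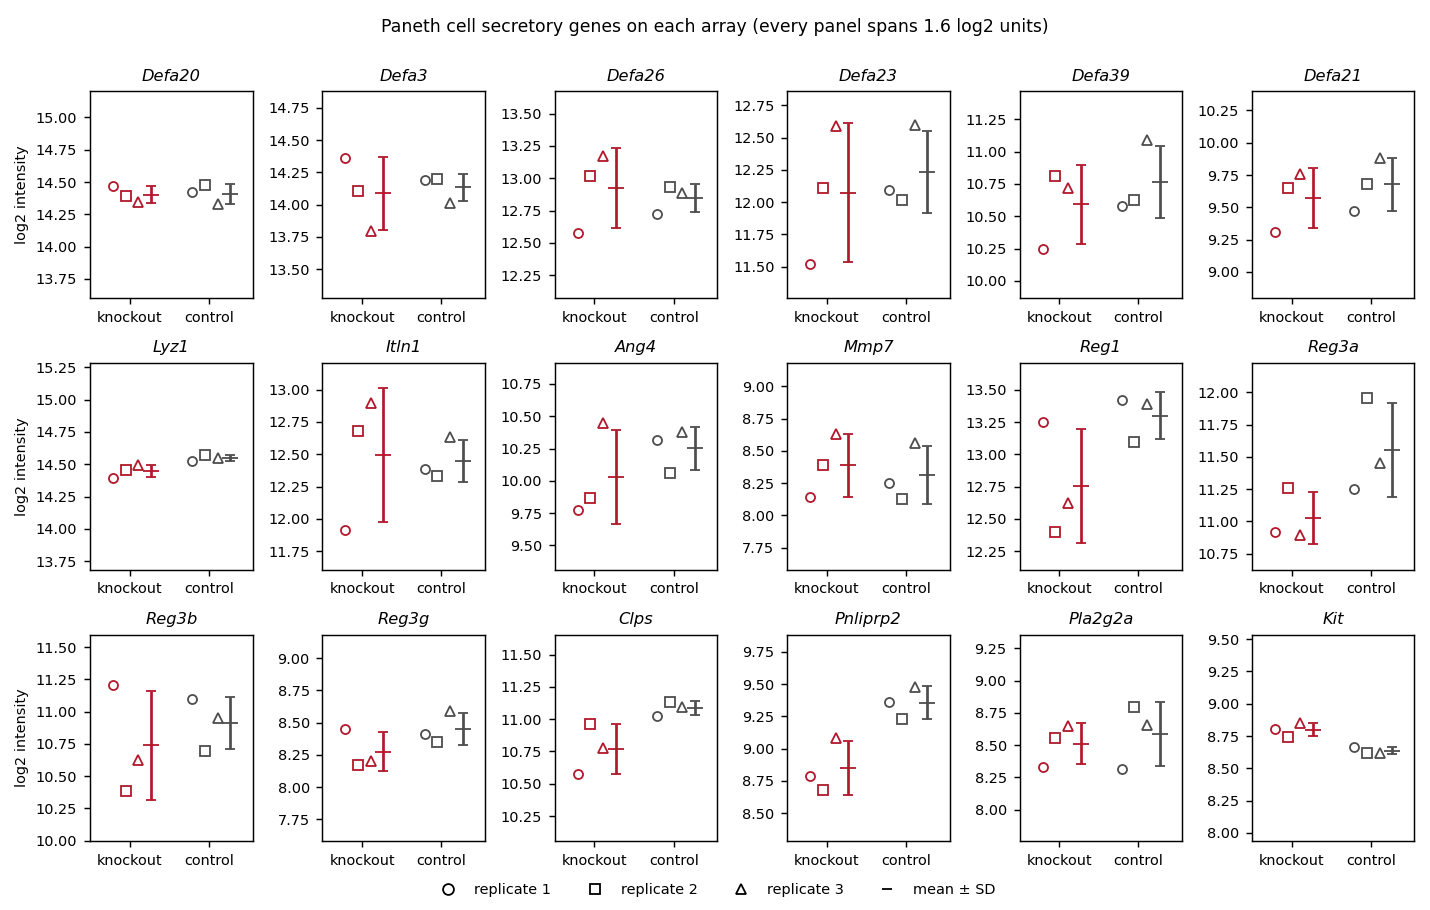
Log2 intensity of the 18 brighter genes on each array, Snai1 knockout (red) left of control (grey), with symbols for replicate numbers 1 to 3 and a bar for mean ± SD (n = 3 each). All panels span 1.6 log2 units; the groups separate for Lyz1, Clps, Pnliprp2 and Kit.

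Among the other granule proteins Lyz1, the Paneth cell lysozyme, separated the groups by a small amount. Its brightest probe read 14.40, 14.46 and 14.49 on knockout arrays, against 14.53, 14.57 and 14.55 on control arrays, a difference of -0.10 ± 0.03 (SE; 95% interval -0.17 to -0.02; limma adjusted p = 0.523, and 0.308 with the block). All knockout values lay below all control values. Like the brightest defensin probes, this probe lies close to the highest array value of 14.8. The second probe read 12.85, 12.93 and 13.20 on knockout arrays and 13.15, 13.04 and 13.09 on control arrays, and the third 12.26, 12.73 and 12.82 on knockout arrays and 12.65, 12.67 and 12.86 on control arrays. Their differences were -0.10 ± 0.09 and -0.12 ± 0.15 (SE), of the same sign as the first, but with overlapping groups.

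Lyz2, the neighbouring gene best known as the lysozyme of macrophages, read 7.82, 7.83 and 7.79 on knockout arrays and 7.86, 7.84 and 7.82 on control arrays with its brightest of 3 probes, all near the floor. The bases nearest the starts of both genes are shown because they are so alike, with capitals at the bases that differ.
Lyz1, chr10:117292869-117292968, minus strand: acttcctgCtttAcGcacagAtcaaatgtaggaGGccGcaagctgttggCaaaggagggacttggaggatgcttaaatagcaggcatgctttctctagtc
Lyz2, chr10:117282273-117282372, minus strand: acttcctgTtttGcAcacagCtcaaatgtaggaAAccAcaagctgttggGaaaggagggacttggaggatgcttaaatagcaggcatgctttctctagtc
They matched at 92 of these 100 bases, and at 152 of all 250 upstream bases without gaps. Macrophage markers were near the floor too: none of 14 measured exceeded the upper quartile, 9 lay below the median, and their mean level was 7.86 to 7.89 on knockout arrays and 7.87 to 7.89 on control arrays.

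Itln1, Ang4 and Mmp7 varied more between replicates than between genotypes. Itln1 encodes intelectin-1, a lectin that binds microbial sugars, and read 11.91, 12.68 and 12.90 on knockout arrays against 12.38, 12.33 and 12.64 on control arrays (0.05 ± 0.26, SE; 95% interval -0.59 to 0.68). Ang4, a ribonuclease of the angiogenin family with microbicidal activity, read 9.77, 9.87 and 10.45 on knockout arrays against 10.31, 10.06 and 10.38 on control arrays (-0.22 ± 0.19; -0.69 to 0.25). Mmp7, the protease that activates the cryptdins, read 8.14, 8.39 and 8.63 on knockout arrays against 8.25, 8.13 and 8.56 on control arrays (0.08 ± 0.16; -0.31 to 0.46). The third array was the highest of its group for all 3 genes in both genotypes. For Itln1 the knockout minus control difference was -0.47 in the pair numbered 1, 0.35 in that numbered 2 and 0.26 in that numbered 3, so its near-zero mean joins opposite values.

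**Figure D3:**
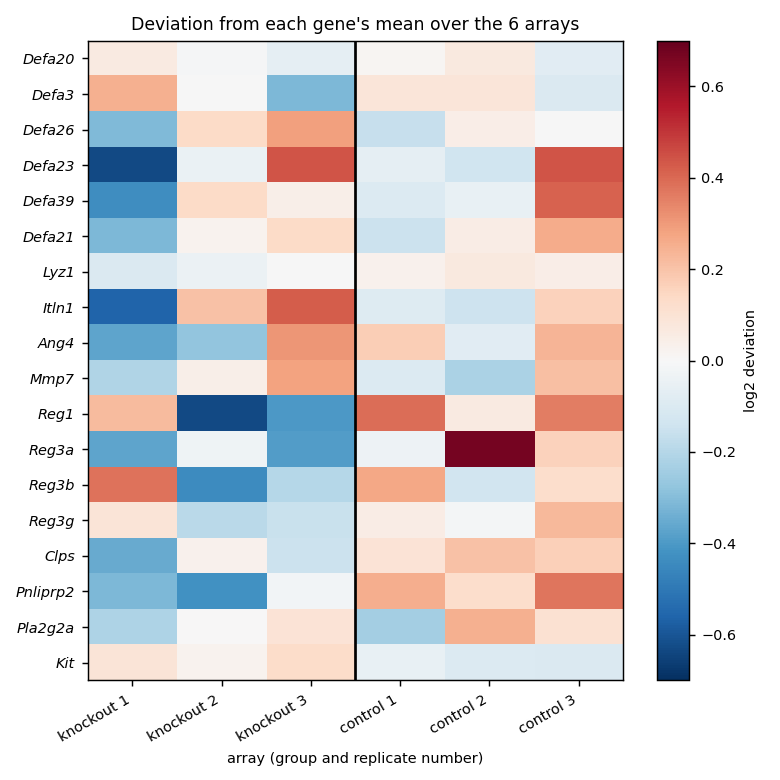
Deviation of each of the 18 brighter genes from its own mean over the 6 arrays (colour, log2 units), knockout arrays left of the line and control arrays right of it. Knockout array 1 was the lowest array for 8 of the 18 genes.

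Reg lectins are C-type lectin-like proteins, of which Reg3b and Reg3g kill or restrain gut bacteria. The 4 above the upper quartile all had lower knockout means. Reg1 read 13.25, 12.39 and 12.63 on knockout arrays, against 13.42, 13.09 and 13.39 on control arrays, a difference of -0.54 ± 0.23 (SE; 95% interval -1.10 to 0.01; adjusted p = 0.704 with limma). Reg3a read 10.92, 11.26 and 10.90 on knockout arrays, against 11.25, 11.96 and 11.45 on control arrays, a difference of -0.53 ± 0.20 (-1.01 to -0.04; adjusted p = 0.648). In both genes every knockout array lay below the control array of the same number, but one knockout array overlapped the control range. The pair differences were -0.17, -0.70 and -0.76 for Reg1 and -0.33, -0.70 and -0.55 for Reg3a, and the adjusted p with the replicate block was 0.254 and 0.151 (limma).

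Reg3b read 11.20, 10.39 and 10.63 on knockout arrays and 11.10, 10.69 and 10.95 on control arrays (-0.17 ± 0.22, SE). Reg3g, which binds Gram-positive bacteria, read 8.45, 8.17 and 8.20 on knockout arrays and 8.41, 8.35 and 8.59 on control arrays (-0.17 ± 0.09). The other Reg3b probe read 7.80 to 7.86 on knockout arrays and 7.85 to 7.87 on control arrays, near the floor. With that probe averaged in, the Reg3b difference was -0.099. For both genes the knockout array was lower in the pairs numbered 2 and 3 and slightly higher in the pair numbered 1. Averaged over these 4 Reg genes, the knockout arrays 1 to 3 stood at -0.10, -0.50 and -0.47 against the control mean, and the control arrays at -0.01, -0.03 and 0.04. The alpha-defensins ordered the knockout arrays differently, at -0.27, 0.00 and 0.05 over the 6 genes. The other 3 Reg genes stayed low: Reg2 read 7.78 to 7.82 on knockout arrays and 7.78 to 7.88 on control arrays, Reg3d 7.79 to 7.81 and 7.83 to 7.84, and Reg4 7.82 to 8.14 and 7.88 to 8.03, knockout before control.

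Of the genes of fat digestion, Pnliprp2 and Clps separated the groups on their brighter probes. Pnliprp2, pancreatic lipase-related protein 2, splits galactolipids and triglycerides, and its brighter probe read 8.79, 8.68 and 9.08 on knockout arrays, against 9.36, 9.23 and 9.48 on control arrays. The groups did not overlap, the difference was -0.50 ± 0.12 (SE; 95% interval -0.79 to -0.22), and the linear ratio of knockout to control was 0.706. Its adjusted p was 0.343 with limma, 0.0725 with the replicate block and 0.0155 with a variance trend and robust estimation, the only fit in which a member passed. The dimmer probe read 8.33, 8.44 and 8.58 on knockout arrays and 8.67, 8.51 and 8.93 on control arrays (-0.25 ± 0.12), and here the groups overlapped at one array.

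Clps encodes colipase, which anchors pancreatic lipase on fat droplets. Its brighter probe read 10.57, 10.96 and 10.78 on knockout arrays, against 11.02, 11.13 and 11.10 on control arrays, a difference of -0.31 ± 0.10 (SE; -0.55 to -0.08; adjusted p = 0.523, and 0.184 with the block, limma). The dimmer probe read 9.72, 10.10 and 9.87 on knockout arrays and 9.91, 10.16 and 10.13 on control arrays (-0.17 ± 0.11). Only the brighter probe separated the groups, and both were lower in each of the 3 pairs. Pla2g2a, a secreted phospholipase that attacks bacterial membranes and is disrupted in some inbred mouse strains, read 8.33, 8.55 and 8.65 on knockout arrays and 8.31, 8.80 and 8.65 on control arrays (-0.08 ± 0.14).

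Pancreatic acinar cells also make colipase and lipases, and their markers were examined beside these genes. Of 13 acinar genes measured, 1 exceeded the upper quartile and 9 lay below the median. A lower knockout mean was found in 11 of the 13, where 9664 of all 19057 genes had one. Without overlap 3 were lower and 1 higher, where 5.85% and 6.20% of all genes were. The mean level of the list was 7.87 to 7.89 on knockout arrays and 7.91 to 7.93 on control arrays, without overlap. Cela1, an elastase and the only one above the upper quartile, read 8.32 ± 0.08 on knockout arrays and 8.53 ± 0.13 on control arrays (SD, n = 3 each; limma adjusted p = 0.611). Near the floor, Cpa1 read 7.80 ± 0.02 and 7.87 ± 0.01, and Rbpjl 7.81 ± 0.02 and 7.87 ± 0.03, knockout before control. In the other direction Cela2a, near the floor, read 7.87 ± 0.03 and 7.80 ± 0.03 in the same order, without overlap. No acinar gene passed, and the part of this list's level in the Pnliprp2 and Clps differences was not tested.

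Kit, a receptor tyrosine kinase found on Paneth cells, was the only brighter gene whose groups separated upward. Its brightest probe read 8.81, 8.74 and 8.85 on knockout arrays, against 8.67, 8.62 and 8.62 on control arrays, a difference of 0.16 ± 0.03 (SE; 95% interval 0.08 to 0.24; limma adjusted p = 0.284, and 0.187 with the block). The other 2 Kit probes read 7.78 to 7.88 on knockout arrays and 7.80 to 7.89 on control arrays, near the floor, and the mean of all 3 probes differed by 0.056. Mast cells and interstitial cells also use Kit, and none of their 11 measured markers exceeded the upper quartile, with a mean level of 7.85 to 7.86 on knockout arrays and 7.86 to 7.87 on control arrays.

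**Figure D4:**
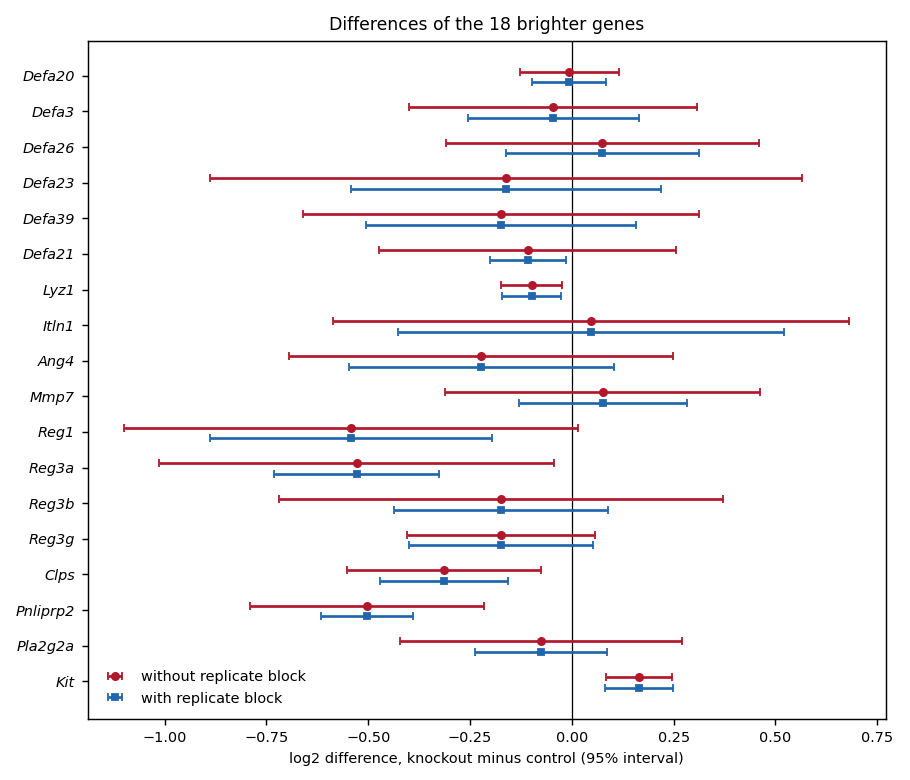
Log2 difference, knockout minus control, of the 18 brighter genes with 95% intervals of single genes, without (red circles) and with (blue squares) the replicate block. Without the block the intervals of Lyz1, Reg3a, Clps and Pnliprp2 lie below 0 and that of Kit above 0, before any adjustment for the number of genes.

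Of the 66 genes, 5 were higher and 6 lower without overlap between genotypes, against 6.20% and 5.85% of all genes, shares near the background. In all 3 pairs 16 of 66 were lower and 5 higher, against 15.2% and 15.7% of all genes. Among the 18 brighter genes 3 were lower without overlap (Lyz1, Clps and Pnliprp2), where 6.54% of the 6969 genes above the upper quartile were, and 1 was higher (Kit), where 8.38% were. At an unadjusted p under 0.05 there were 5 of 18, against 14.9% of those genes. Lower in all 3 pairs were 6 of 18, against 17.5%, and higher in all 3 pairs 1 of 18, against 20.8%. Of the 18, 14 had a lower knockout mean, with a median difference of -0.13, while 3387 of the 6969 did, with a median of 0.00. The brighter members varied more between arrays, with a median SE of 0.15 against 0.067 for the 6969 genes, and of 0.078 against 0.046 with the block.

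Probe by probe, 26 of the 88 probes exceeded the upper quartile, and 20 of these had a lower and 6 a higher knockout mean. Of the 5 genes with several such probes, Clps, Lyz1 and Pnliprp2 had every probe on the lower side, and Defa3 and Defa20 had 2 probes lower and 1 higher.

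**Figure D5:**
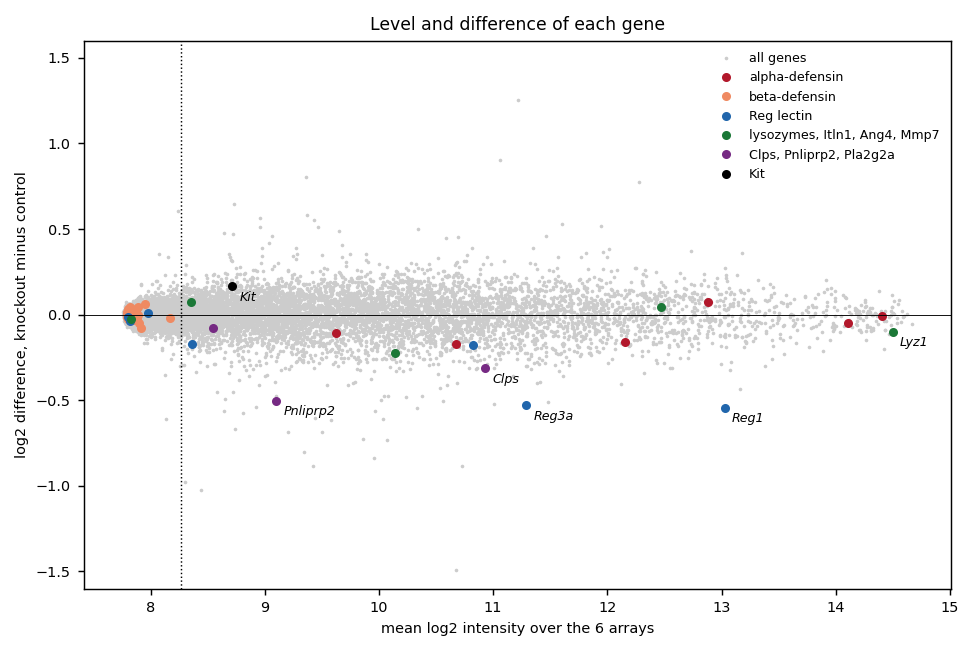
Mean log2 intensity over the 6 arrays (x) against the log2 difference, knockout minus control (y), for all genes (grey) and the members by family (colours). The dotted line marks the upper quartile of 8.27, 1 gene lies outside the drawn range, and all 42 beta-defensins sit left of the line.

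Beta-defensins, the defensin family of skin, airway, kidney and the male reproductive tract, were at or near the floor in both genotypes. None of their 50 probes exceeded the upper quartile. By gene, values ran from 7.76 to 8.33 on knockout arrays and from 7.76 to 8.22 on control arrays, and 35 of the 42 lay below the median. The one nearest to the upper quartile, Defb37 by the brighter of its probes, read 8.33, 8.02 and 8.13 on knockout arrays and 8.18, 8.22 and 8.13 on control arrays, while its other probe averaged 7.77 on knockout arrays and 7.79 on control arrays. Differences ran from -0.08 to 0.06, and 4 of 42 genes were higher and 2 lower without overlap, where 6.20% and 5.85% of all genes were. Defb25 had the lowest p of these 42, at 7.88 ± 0.03 on knockout arrays and 7.96 ± 0.03 on control arrays (SD, n = 3 each; limma adjusted p = 0.609).

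Other genes of the Paneth cell were taken from lists and likewise held no gene that passed. Of 20 measured fate and position genes, 17 had a higher knockout mean, where 9393 of all 19057 genes did. The median difference was 0.03 against 0.00 over all genes, and only 10 of the 20 exceeded the upper quartile. Bhlha15 (Mist1), a transcription factor of secretory cells, read 8.80 ± 0.05 on knockout arrays and 8.63 ± 0.11 on control arrays without overlap (SD, n = 3 each; limma adjusted p = 0.591), and Fzd5, a Wnt receptor needed for Paneth cell maturation in the mouse, read 11.89 ± 0.10 and 11.74 ± 0.09 (adjusted p = 0.706), knockout before control. The Notch ligand gene Dll1 differed by 0.09 ± 0.03 and Runx1, near the floor, by -0.07 ± 0.02 (SE).

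Among 27 other secreted or granule genes, 14 of them above the upper quartile, 11 had a higher knockout mean and the median difference was -0.00. Dmbt1, a scavenger receptor-like protein that binds bacteria, differed by -0.43 ± 0.15 and Mptx1, a mucosal pentraxin, by 0.39 ± 0.17 (SE). The potassium channel gene Kcnn4 differed by 0.12 ± 0.06 and Sec11c, a signal peptidase subunit, by -0.27 ± 0.15. Of 17 genes of microbe sensing and autophagy, 8 of them above the upper quartile, 10 had a higher knockout mean. Vamp8, a SNARE of granule exocytosis, read 10.93 ± 0.09 on knockout arrays and 11.19 ± 0.03 on control arrays without overlap (SD, n = 3 each; adjusted p = 0.242 with limma), while Ern1, a sensor of endoplasmic reticulum stress, differed by 0.10 ± 0.04, the immunity GTPase gene Irgm1 by -0.25 ± 0.16 and the autophagy gene Atg16l1 by 0.12 ± 0.09 (SE). No gene of these 3 lists passed with the replicate block either.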

How the data were processed

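The deposited log2 values of 45281 probes on 6 Illumina arrays were used as given. Per the labels' protocols, RNA was amplified to biotin-labelled cRNA. Sorted values differed by at most 0.0019 between arrays, so the authors had equalised the distributions. For the software, background correction and log base, none is given in the sources used here. Platform annotation named 1 gene for 34885 probes, several for 18 and none for 10378. A gene's value was its probe with the highest mean over the 6 arrays, with no filter. The test of genotype was limma's lmFit and eBayes (version 3.58.1, R 4.3.3) with Benjamini-Hochberg adjustment over 19057 genes, tested on simulated data first. Alternatives were the replicate number as a block, filters on dim genes, other probe rules, array weights, a variance trend and rescaling. Motifs were searched with Python 3.11.15. The members and lists were chosen with earlier results of these data known. Every member is accounted for, and array values are printed for those above the upper quartile. In each list the 4 genes of lowest p may be named. Defb25, Defb37 and the dim members were singled out after their values were seen.

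Deviations from the group means correlated at r = 0.35, 0.33 and 0.46 between arrays numbered 1, 2 and 3, so the numbers were taken to pair the arrays in the blocked fit. What a shared number stands for is unknown. The number of arrays limits the precision.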

Additional observations from a re-analysis of the deposited data

How the results depend on the processing

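The count of members called was 0 under all settings but one: with a variance trend and robust estimation it was 1 (Pnliprp2, adjusted p = 0.0155, limma). Leaving out an array gave 0 members in each of the 6 fits. The count over all genes, 25, was 9 with the replicate block, 41 among genes above the upper quartile, 71 with the trend and robust variance, and 4 to 23 without one array (lowest without knockout replicate 3). The replicate block changed no call of a member. Of the 66 members 29 had a higher knockout mean; the count was 7 among genes above the median and 4 above the upper quartile, where fewer members were tested, and 25 to 30 without one array. Of the differences recomputed for the 18 brighter genes, 251 kept direction and side of the threshold. With the mean of all probes Defa20 turned to 0.075. The other reversals came from leaving out one array, where the differences ran from -0.046 to 0.028 for Defa20, -0.21 to 0.023 for Defa21, -0.42 to 0.12 for Defa23, -0.050 to 0.25 for Defa26, -0.18 to 0.10 for Defa3, -0.28 to 0.00042 for Defa39, -0.15 to 0.34 for Itln1, -0.046 to 0.20 for Mmp7, -0.21 to 0.028 for Pla2g2a and -0.41 to 0.0018 for Reg3b. Differences of Pnliprp2 (-0.62 to -0.42), Reg1 (-0.79 to -0.36), Reg3a (-0.68 to -0.33), Clps (-0.41 to -0.22), Lyz1 (-0.12 to -0.07) and Kit (0.14 to 0.19) kept their sign without any one array, as did those of Ang4 (-0.43 without knockout replicate 3 to -0.094 without knockout replicate 1) and Reg3g (-0.26 without knockout replicate 1 to -0.10 without control replicate 3). Reg1 was nearest to 0 without knockout replicate 2 and Reg3a without control replicate 2. With the mean of all probes, which for these genes includes probes near the floor, Kit was at 0.056 and Reg3b at -0.099. The cause of these changes was not tested. Compression near the floor limits the beta-defensins, Defa31, Lyz2 and 3 Reg genes.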

Other observations

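Other lineages of the organoid were read beside the Paneth cell genes, and no listed gene passed in either fit. Goblet cell markers, whose mean level was 9.66 to 10.01 on knockout arrays and 9.65 to 9.89 on control arrays, had a median difference of -0.01 over 15 genes, with Spdef, a transcription factor of goblet and Paneth cells, at 0.11 ± 0.06 (SE). Crypt base stem cell markers, 7 of 12 above the upper quartile, had a higher knockout mean in 11 of 12 genes. Of all 19057 genes 9393 did. The differences of these markers ran from -0.005 to 0.45, with a median of 0.08. The highest were 0.45 ± 0.13 for Olfm4, without overlap, and 0.42 ± 0.18 for Lgr5 (SE; limma adjusted p = 0.482 and 0.726). Enterocyte markers had a higher knockout mean in 4 of 15, and their differences ran from -0.28 to 0.22. The lowest was Apoa1, an apolipoprotein, at -0.28 ± 0.11 (SE). Enteroendocrine markers had a higher knockout mean in 6 of 15, with differences from -0.29 to 0.23. Among them 3 were lower without overlap (Chga, Ghrl and Tph1) and none higher, where 5.85% and 6.20% of all genes were. In all 3 pairs 7 were lower and 3 higher, against 15.2% and 15.7% of all genes. Chga, a granule protein, read 8.25 ± 0.08 on knockout arrays and 8.42 ± 0.02 on control arrays (SD, n = 3 each; limma adjusted p = 0.395). Ghrl differed by -0.29 ± 0.08 (SE; limma adjusted p = 0.415). All 9 measured tuft cell markers and all 10 fibroblast markers lay at or below the upper quartile, with median differences of 0.03 and 0.00.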
